A study of Mus musculus with 6 samples.

Results

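This account concerns 10 genes around the transcription factor NRF2 in the livers of 9/13-HODEs-treated mice, namely the gene of NRF2 itself (Nfe2l2), that of its inhibitor (Keap1) and 8 of its classical targets (Nqo1, Hmox1, Gclc, Gclm, Srxn1, Txnrd1, Gsr and Osgin1). They were chosen by gene name from the 55401 gene models of the deposited table, and each name belonged to 1 gene model. Liver RNA from 3 mice treated with 9/13-HODEs and from 3 Ctrl mice was sequenced after poly(A) selection, with 1 library per mouse. All were male C57BL/6 mice, 8 weeks old, injected intraperitoneally each day for 9 days. The treated mice received equal parts of 9-HODE and 13-HODE at a combined 0.5 μg/g body weight, and the Ctrl mice received the solvent of PEG400 and water alone. 9-HODE and 13-HODE are hydroxylated products of linoleic acid that accumulate when lipids are oxidized.

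NRF2 is a basic leucine zipper factor that drives the genes of glutathione synthesis, thioredoxin reduction, quinone detoxification and heme breakdown. In unstressed cells KEAP1 holds NRF2 in the cytosol and directs it to a ubiquitin ligase for degradation. Electrophiles and oxidants modify cysteines of KEAP1, NRF2 then accumulates, pairs with small MAF proteins and binds the antioxidant response element of its targets. The control is therefore largely at the level of the protein, which RNA sequencing does not measure. In the liver, target mRNAs such as Nqo1 are commonly used as a readout of NRF2.

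The core of the antioxidant response element was searched in the RefSeq promoters of the members, because it is the sequence through which NRF2 reaches its targets. Each window ran from 250 bases before to 50 bases after a transcript start (build GRCm38.p6), and both strands were read. RefSeq windows were matched for 7 members (9 windows, 3 of them for Txnrd1). Hmox1, Gclc and Gsr were not matched. The letters TGACNNNGC occurred in 4 of the 9 windows (44.4%), against 12.4% of all 32851 windows. The variant TGAGNNNGC was added to the search after the windows had been read, and it occurred in 2 of the 9 windows (22.2%), against 17.6% of all windows. At least 1 of these forms was present in 5 of the 9 windows (55.6%, against 27.8% of all windows and 30.7% of those of tested genes). In the lists of other pathway genes described below, the share was 58.3% in regulators and partners and 50% in NADPH supply. It was 22.2% to 30.8% in the remaining lists. With 9 windows of 7 genes, the counts are small numbers to set beside a share. In the Srxn1 and Osgin1 windows a core overlapped the AP-1 motif TGANTCA, which was the case in 0.822% of all windows. Both overlapping cores are of the TGAG form, so this comparison rests on letters added after the windows had been read. Such a match describes the letters and does not show that NRF2 binds there. The matches are shown with 8 flanking bases on each side, read 5′ to 3′ on the strand of the core, with the core in capitals:
Nfe2l2 (core at chr2:75704895-75704903): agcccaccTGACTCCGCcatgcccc
Gclm (core at chr3:122245423-122245431): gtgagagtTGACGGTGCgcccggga
Srxn1 upstream (core at chr2:152105366-152105374): agagaggaTGAGTCGGCtctcagta
Srxn1 middle (core at chr2:152105479-152105487): attcacccTGAGTCAGCggccgggc
Srxn1 downstream (core at chr2:152105552-152105560): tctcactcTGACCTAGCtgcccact
Txnrd1 (core at chr10:82859114-82859122): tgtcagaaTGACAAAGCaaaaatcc
Osgin1 (core at chr8:119437048-119437056): cataagcgTGAGTCAGCaggggccc
The middle Srxn1 core and the Osgin1 core have the same 9 letters and are the ones that overlap the AP-1 motif. The windows of Keap1 and Nqo1 held neither form of the core. Sequence outside the windows was not searched, so this does not show that these genes lack the element.

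Total counts were 71710457 to 78615288 in 9/13-HODEs libraries and 70300597 to 74018372 in Ctrl libraries. The libraries correlated at 0.971 to 0.979 (Pearson, log2 CPM, counts scaled to depth, across genes). Transcripts of the mitochondrial genome took 10.5% to 11.8% of counts in 9/13-HODEs livers and 6.70% to 9.51% in Ctrl livers, without overlap, and their part in the results was not tested. The hepatocyte marker Alb, serum albumin, stood at an FPKM (fragments scaled to transcript length and library depth) of 28018.8 to 34711 in 9/13-HODEs livers and 27512.9 to 38240.5 in Ctrl livers. The summed FPKM of each of 11 marker lists, for hepatocytes and other cell types, overlapped between the groups. Single genes could differ from their sum. All 6 pericentral hepatocyte genes had a log2 fold change below 0, from -0.17 (Glul) to -0.41 (Lgr5). Of these genes, 0 had an unadjusted edgeR p under 0.05. Glul stood at an FPKM of 125 to 150 in treated livers and 155 to 171 in Ctrl livers. Cyp1a2 stood at 391 to 497 and 520 to 695, and neither gene overlapped between the groups in FPKM. The FPKM carry no TMM factor, the library scaling used in the edgeR test. In counts, not scaled to depth, both genes overlapped. Glul had 37145 to 49531 counts in treated livers and 47373 to 53177 in Ctrl livers, and Cyp1a2 had 61784 to 87394 and 85870 to 109491. Among the marker genes, Lyve1 of endothelial cells (log2 fold change 1.06) and the periportal Sds (0.52) were higher at an unadjusted edgeR p under 0.05. The hepatocyte gene Cps1 (-0.28) and the red blood cell gene Alas2 (-0.38) were lower. Each was the 1 such gene among the tested genes of its list (6, 6, 6 and 5), against 7.69% of all tested genes. The other endothelial genes ranged from -0.08 (Kdr) to 0.40 (Stab2). The other periportal genes ranged from -0.30 (Hsd17b13) to 0.11 (Gls2). The adipocyte gene Retn had 61, 8 and 10 counts in 9/13-HODEs livers and 0 in each Ctrl liver. It reached the mean FPKM of 0.1 needed for the test only through treated livers. Its unadjusted edgeR p under 0.05 is therefore not read as a difference. The adipocyte genes Adipoq, Plin1 and Lep had 63, 38 and 4 counts in replicate 1 of the 9/13-HODEs livers and 0 in the other 5 livers. Without that library the log2 fold changes of Osgin1, Gclc and Hmox1 were -2.75, -0.33 and 0.46, each at an unadjusted edgeR p under 0.05. Those of Keap1 and Gclm turned to 0.0140 and 0.05, and the median of the members was -0.07. Retn kept its 8 and 10 counts in the other treated livers, so leaving out that library does not remove these markers. The part of these markers in the results was not tested. The acinar markers Prss2, Amy2a5 and Pnlip had no counts. The other gene of the acinar list, Cela1, had 784 to 1281 counts in treated livers and 988 to 2030 in Ctrl livers. Fewer cells of a type and less RNA per cell cannot be told apart in whole liver.

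All 10 members were above the FPKM minimum of the test, in which edgeR's quasi-likelihood method was applied to the counts of 14741 genes. Log2 fold changes are 9/13-HODEs over Ctrl, levels are in FPKM, and ± marks the SD over n = 3 mice. By edgeR with Benjamini-Hochberg adjustment, 0 of the 10 members had an adjusted p under 0.05, as against 3 of all tested genes (0.0204%), and 0 passed by DESeq2 (0.604% of all genes), where Txnrd1 had no adjusted p. At an unadjusted p under 0.05 by edgeR, Hmox1 was higher (4.08% of all genes were) and Gclc and Osgin1 were lower (3.61% of all genes were). With 10 genes, these counts of 1 and 2 are small numbers to set beside a share. The median log2 fold change of the members was -0.20 and that of all tested genes was 0.00, with 3 members above 0 and 7 below. The median of the members was -0.07 without replicate 1 of the treated livers, -0.31 without replicate 2 and -0.34 with limma-trend on log2(TPM + 0.1), which moves the median of all genes to -0.14. Each library is 1 mouse, so the edgeR p-values set the group difference against variation between mice. That variation is estimated for each gene with information shared over all tested genes. For 3 mice against 3, the exact permutation test over 20 assignments cannot give a two-sided p below 0.1.

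**Figure D1:**
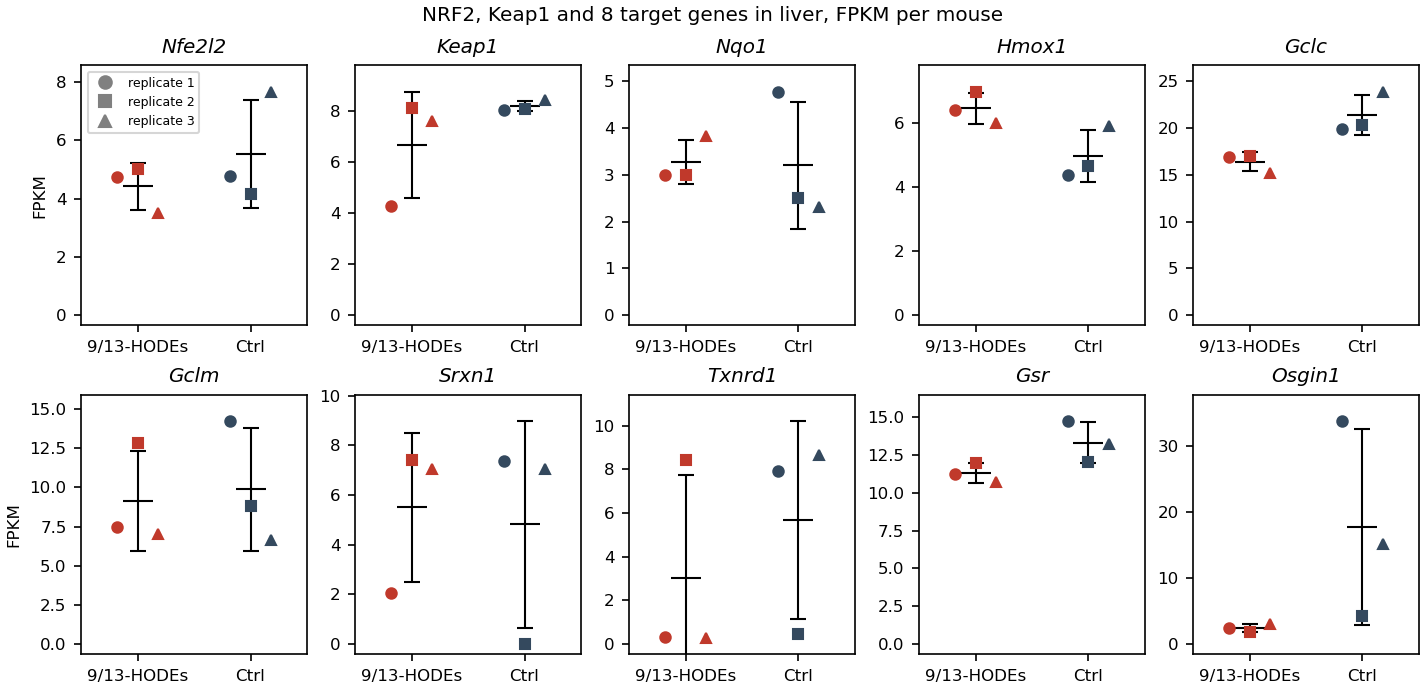
FPKM of each of the 10 genes (y axis) in the 3 livers of 9/13-HODEs-treated mice (left, red) and the 3 Ctrl livers (right, blue), with the replicate number as the symbol and the mean and SD as bars (the lower bar of Txnrd1 is clipped). The 3 Osgin1 values of treated livers lie at 1.79 to 3.10, below the 4.29 to 33.7 of Ctrl livers. Txnrd1 lies under 0.5 in replicates 1 and 3 of the treated livers and in Ctrl replicate 2.

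For the master regulator and its inhibitor the 95% interval of the log2 fold change included 0. Nfe2l2, which encodes NRF2 (chr2:75675513-75704641, minus strand), had an FPKM of 4.74, 5.01 and 3.51 in 9/13-HODEs livers, against 4.78, 4.16 and 7.67 in Ctrl livers. The groups overlapped, and the highest value was that of Ctrl replicate 3. Its log2 fold change was -0.25 (standard error 0.22, 95% interval -0.79 to 0.28, unadjusted p = 0.299 by edgeR) and turned to 0.0151 without Ctrl replicate 3. Keap1, the adaptor that brings NRF2 to its ligase (chr9:21229730-21239361, minus strand), had an FPKM of 4.29, 8.13 and 7.60 in 9/13-HODEs livers, against 8.06, 8.10 and 8.44 in Ctrl livers. Replicate 1 of the treated livers was alone low, at 1581 counts, and the 2 other treated livers lay within or near the Ctrl values. The log2 fold change of Keap1 was -0.23 (standard error 0.24, 95% interval -0.80 to 0.34) and 0.0140 without that library. Antisense gene Gm16754 shares exonic bases with Keap1 but had 22 to 71 counts, which is little beside Keap1. The ratio of Nfe2l2 to Keap1 FPKM was 1.11, 0.617 and 0.462 in 9/13-HODEs livers and 0.592, 0.514 and 0.909 in Ctrl livers, so that the groups overlapped, with the wider range in treated livers.

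Osgin1 was lower in treated livers at an unadjusted p and had the largest fold of the 10 genes, except with the replicate number as a block, where its log2 fold change was -2.36 and that of Txnrd1 -2.93, and without replicate 2 of the treated livers. OSGIN1 is an oxidative stress-induced growth inhibitor whose gene is on chromosome 8 (chr8:119434124-119446256, plus strand). It had an FPKM of 2.48, 1.79 and 3.10 in 9/13-HODEs livers, against 33.7, 4.29 and 15.2 in Ctrl livers (counts of 524, 404 and 725 against 7313, 898 and 3337). Each treated liver lay below the lowest Ctrl liver, and the Ctrl livers themselves differed 7.87-fold. The fold was 0.148 (95% interval 0.0463 to 0.473), a log2 fold change of -2.76 with a standard error of 0.70 (edgeR unadjusted p = 0.00627, Benjamini-Hochberg adjusted p = 0.649). DESeq2 gave an adjusted p of 0.0716, the lowest of the 15 alternatives, which ranged up to 0.829, and the exact permutation p was 0.1. Without Ctrl replicate 1, the highest liver, the log2 fold change was -1.87 (edgeR unadjusted p = 0.0137), and without Ctrl replicate 2, the lowest, it was -3.21. Of all tested genes, 0.380% had a larger ratio of mean FPKM in either direction. The methods of the study define differential expression by a log2 fold change beyond 0.65 in either direction. By the log2 ratio of mean FPKM, Osgin1 (-2.80) and Txnrd1 (-0.88) were past it on the lower side, as were 5.79% of all tested genes (4.61% were past it on the higher side, 10.4% in all). With an unadjusted edgeR p under 0.05 as well, Osgin1 was the 1 member past both, on the lower side, as were 1.62% of all tested genes (1.49% on the higher side, 3.11% in all).

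The 250 bases before the RefSeq start of Osgin1 (chr8:119436897-119437146, plus strand, GRCm38.p6) are shown because this gene had the largest fold of the members by edgeR without a block, with the core on the opposite strand in capitals, as the reverse complement of the letters shown for the match:
Osgin1 promoter: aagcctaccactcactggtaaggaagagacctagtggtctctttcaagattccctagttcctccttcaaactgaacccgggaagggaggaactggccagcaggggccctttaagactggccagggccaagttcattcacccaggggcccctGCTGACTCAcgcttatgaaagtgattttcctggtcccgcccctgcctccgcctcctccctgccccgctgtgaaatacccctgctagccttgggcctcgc

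Genes whose pattern over the 6 libraries was most like that of Osgin1, by Pearson's r of log2(CPM + 1) among 8252 other genes averaging an FPKM of 1 or more, were Gm43471 (r = 0.993), Aldh4a1 (0.990), Qprt (0.986), Slc6a9 (0.979) and Mov10 (0.977). These coefficients are descriptions over 6 libraries that also hold the group difference. Slc6a9, a glycine transporter gene, had an FPKM of 2.25, 2.01 and 2.88 in 9/13-HODEs livers, against 9.90, 2.82 and 4.75 in Ctrl livers, again with Ctrl replicate 1 highest and Ctrl replicate 2 lowest among the Ctrl livers. Treated replicate 3 of Slc6a9, at 2.88, lay above Ctrl replicate 2, so these groups overlapped.

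Of the glutathione genes, Gclc was lower in treated livers at an unadjusted p, and Gclm and Gsr did not pass it. Gclc encodes the catalytic subunit of glutamate-cysteine ligase, the enzyme of the rate-limiting step of glutathione synthesis (chr9:77754535-77794485, plus strand). Its FPKM was 16.96, 17.03 and 15.2 in 9/13-HODEs livers, against 19.9, 20.4 and 23.9 in Ctrl livers, with no overlap. Its log2 fold change was -0.32 (standard error 0.09, 95% interval -0.53 to -0.10, fold 0.803), with an edgeR unadjusted p of 0.00979, a Benjamini-Hochberg adjusted p of 0.649 and an exact permutation p of 0.1. Gclm encodes the modifier subunit of the same ligase (chr3:122245557-122270732, plus strand). Its FPKM was 7.50, 12.8 and 7.04 in 9/13-HODEs livers, against 14.2, 8.79 and 6.64 in Ctrl livers, and the groups overlapped widely. The log2 fold change of Gclm was -0.07 (standard error 0.33, 95% interval -0.86 to 0.73) and ranged from -0.35 to 0.29 when 1 library was left out. The antisense gene Gm17494 shares 296 exonic bases with Gclm and had a mean of 9413 counts, so the division of reads between them is uncertain. Gsr, glutathione reductase, which regenerates reduced glutathione (chr8:33652523-33698163, plus strand), had an FPKM of 11.2, 11.98 and 10.7 in 9/13-HODEs livers, against 14.7, 12.03 and 13.2 in Ctrl livers. Its treated livers were each below the lowest Ctrl liver, replicate 2 of both groups by a narrow margin, and the log2 fold change was -0.17 (standard error 0.10, 95% interval -0.42 to 0.08, edgeR unadjusted p = 0.144).

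Hmox1 was the member that was higher in treated livers at an unadjusted p. HMOX1 is heme oxygenase 1, which opens the heme ring and is made in both hepatocytes and macrophages (chr8:75093621-75100589, plus strand). It had an FPKM of 6.39, 6.96 and 5.99 in 9/13-HODEs livers, against 4.36, 4.63 and 5.90 in Ctrl livers. The groups did not overlap, but treated replicate 3 was close to Ctrl replicate 3. The fold was 1.36 (95% interval 1.08 to 1.72, log2 fold change 0.44, standard error 0.14), with an edgeR unadjusted p of 0.0167, a Benjamini-Hochberg adjusted p of 0.649, a DESeq2 adjusted p of 0.360 and an exact permutation p of 0.1. The unadjusted edgeR p was 0.0526 without replicate 2 of the treated livers, 0.0533 without Ctrl replicate 1 and 0.0639 with library totals in place of TMM. Kupffer cell markers, summed over 6 genes, had an FPKM of 26.3 to 35.9 in treated livers and 25.1 to 34.0 in Ctrl livers. Of these genes, 0 had an unadjusted edgeR p under 0.05. Their log2 fold changes were 0.54 for Marco, 0.46 for Timd4, 0.16 for Clec4f, 0.14 for Cd5l, -0.06 for Vsig4 and -0.54 for Adgre1. Timd4 stood at 0.743 to 0.917 in treated livers and 0.591 to 0.663 in Ctrl livers, and Adgre1 at 0.261 to 0.339 in treated livers and 0.394 to 0.486 in Ctrl livers, both without overlap. Their part in the Hmox1 difference was not tested.

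Hmox1 aside, 3 members had groups apart with every treated liver lower, namely Gclc, Gsr and Osgin1. Among all tested genes the groups were apart with treated livers higher in 5.28% and lower in 9.82%. These calls use the deposited FPKM, which carry no TMM factor. With limma-trend on log2(FPKM + 0.1) the median log2 fold change of all genes was -0.06, against 0.00 by edgeR. With 1 higher and 3 lower of 10 members, the lower share was above that of all genes, but the members are few and were chosen with earlier results known.

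**Figure D2:**
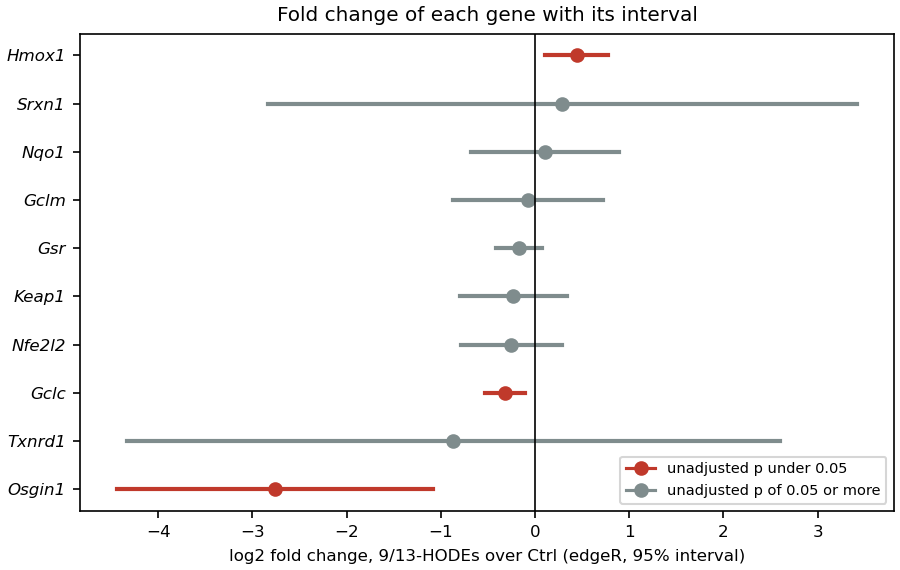
Log2 fold change of each of the 10 genes, 9/13-HODEs over Ctrl, from edgeR, with its 95% interval as a horizontal line. The intervals of Osgin1 (-4.43 to -1.08), Gclc (-0.53 to -0.10) and Hmox1 (0.11 to 0.78) do not cross 0, and those of Srxn1 and Txnrd1 are the widest.

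Nqo1, the quinone reductase commonly read as a measure of NRF2 activity (chr8:107388225-107403206, minus strand), had an FPKM of 3.01, 3.00 and 3.83 in 9/13-HODEs livers, against 4.77, 2.51 and 2.32 in Ctrl livers. Ctrl replicate 1 held the highest and Ctrl replicate 3 the lowest value. The log2 fold change was 0.11 (standard error 0.33, 95% interval -0.68 to 0.89, edgeR unadjusted p = 0.758), and without Ctrl replicate 1 it was 0.51, whereas without Ctrl replicate 3 it was -0.10. The interval therefore allows a change of either direction of a size seen in Hmox1.

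Of the members, Srxn1 and Txnrd1 had the widest spread of deposited values within a group. Srxn1, sulfiredoxin, which repairs over-oxidized peroxiredoxins (chr2:152105516-152109322, plus strand), had an FPKM of 2.05, 7.41 and 7.04 in 9/13-HODEs livers, against 7.36, 0.0252 and 7.06 in Ctrl livers. Ctrl replicate 2 held 7 counts, the other Ctrl libraries 1682 and 1634, and the treated libraries 453, 1760 and 1733. Of the 6 livers, 4 lay at an FPKM of 7.04 to 7.41, and the log2 fold change was 0.29 (standard error 1.31), or -0.29 without Ctrl replicate 2. The gene end of Srxn1 in the table is 152109322, whereas that of GENCODE M21 is 152111376, where its coding transcript ends. The count and FPKM of Srxn1 imply a length of 3951 bases in Ctrl replicate 2 and of 3088 to 3133 bases in the other libraries. Ctrl replicate 2 had a total of 70300597 counts, close to the other libraries, and the cause of its low Srxn1 value was not tested.

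Txnrd1, cytosolic thioredoxin reductase, which recycles thioredoxin with NADPH (chr10:82833951-82897712, plus strand), had an FPKM of 0.344, 8.45 and 0.297 in 9/13-HODEs livers, against 7.90, 0.459 and 8.65 in Ctrl livers. The libraries took either a level of 7.90 to 8.65 or one of 0.297 to 0.459, and both levels occurred in both groups. In counts the low livers held 194, 187 and 256 and the high livers 5039, 4541 and 5031. The log2 fold change was -0.87 (standard error 1.45, 95% interval -4.33 to 2.60, edgeR unadjusted p = 0.570). Without replicate 2 of the treated livers, the 1 high treated liver, it was -4.00 (edgeR unadjusted p = 0.0192). It was -0.34 without replicate 1 or without replicate 3 of the treated livers, -0.46 to -1.41 without 1 of the Ctrl livers, and -2.93 under the replicate block (unadjusted p = 0.318 by edgeR). Why the libraries fall into these levels was not tested.

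The spread of the members within a group was set beside that of the 8253 genes averaging an FPKM of 1 or more, by the largest ratio of FPKM between any 2 livers of a group. It was 292 for Srxn1, which 36 genes exceeded (0.436%), and 28.5 for Txnrd1, which 92 genes exceeded (1.11%). Osgin1 had 7.87, which 263 genes exceeded (3.19%). For Gclm, Nqo1, Keap1 and Nfe2l2 it was 2.14, 2.06, 1.89 and 1.84, and for Hmox1, Gsr and Gclc it was 1.35, 1.22 and 1.20. Of all these genes 217 (2.63%) reached a ratio of 10. The 3 genes that differed by unadjusted p included both a gene of narrow spread, Gclc, and a gene of wide spread, Osgin1.

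**Figure D3:**
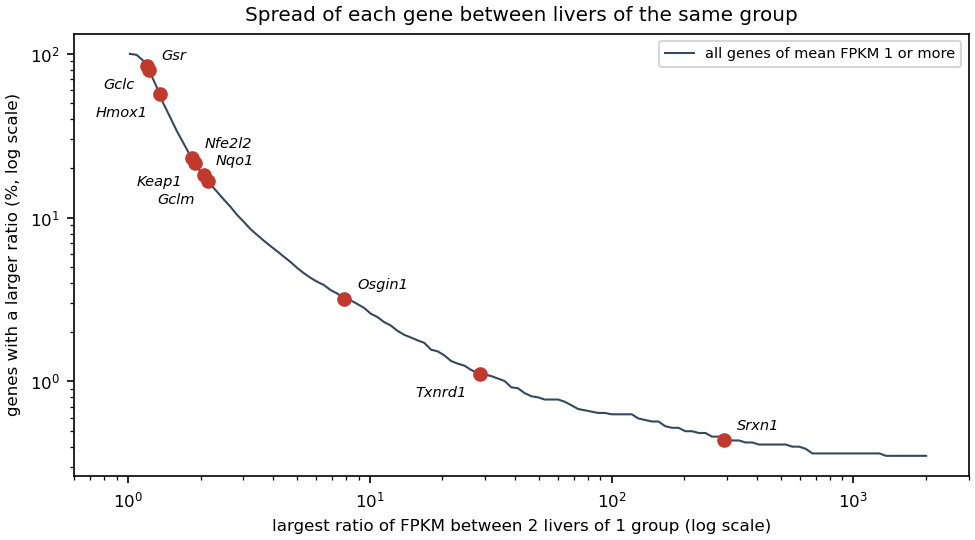
Largest ratio of FPKM between 2 livers of the same group (x axis, log scale) and percent of the 8253 genes with a larger ratio (y axis, log scale), with the 10 members as red points on the curve of all genes. Srxn1, Txnrd1 and Osgin1 lie far to the right, and Gclc and Gsr at the left end.

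Among the 45 pairs of members, 33 had a positive and 12 a negative Pearson's r of level over the 6 libraries, with a median of 0.288. The highest was 0.905, between Gsr and Osgin1, and the lowest -0.70, between Hmox1 and Osgin1. These values mix the group difference with the spread between mice and are a description.

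Other genes of the pathway were taken from lists, with 74 of 80 tested. By edgeR, 0 of these had an adjusted p under 0.05, 3 were higher and 5 were lower at an unadjusted p under 0.05 (10.8%, against 7.69% of all tested genes), and the median log2 fold change was 0.03. The share past that p was 5.56% in regulators and partners, 7.14% in glutathione supply and use and 7.69% in detoxification targets. These shares are at or below that of all tested genes. It was 20% in thioredoxin and peroxiredoxin, 28.6% in NADPH supply and 0% in heme and iron targets, all short lists. The thioredoxin and peroxiredoxin list also holds other redox genes, among them Cat, Sod1, Sod2, Sesn1, Sesn2 and Msra. All genes named below had an adjusted p of 0.649 by edgeR with Benjamini-Hochberg adjustment. Among 18 tested regulators and partners of NRF2, Syvn1, a ubiquitin ligase that degrades NRF2 outside the KEAP1 route, was lower, with a log2 fold change of -0.34 (edgeR unadjusted p = 0.0235). Its FPKM was 5.28, 6.49 and 5.80 in 9/13-HODEs livers, against 7.00, 7.79 and 8.54 in Ctrl livers, with no overlap.

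Of 14 tested genes of glutathione supply and use, 1 was lower, Gstp1, a glutathione transferase, with an FPKM of 401, 844 and 891 in 9/13-HODEs livers, against 1313, 1687 and 1151 in Ctrl livers (log2 fold change -0.89, edgeR unadjusted p = 0.0360). Gstp1 has close paralogs in the mouse, and how reads shared with them were counted is not given in the sources used here. Among the 15 genes of the thioredoxin and peroxiredoxin list, Prdx1, a peroxide-reducing enzyme, had 93.0, 110.0 and 91.9 in 9/13-HODEs livers, against 140.6, 238 and 146 in Ctrl livers (log2 fold change -0.78, edgeR unadjusted p = 0.0148). Cat, catalase, had 502, 507 and 464 in 9/13-HODEs livers, against 611, 553 and 721 in Ctrl livers (log2 fold change -0.29, edgeR unadjusted p = 0.0433). Both were lower without overlap of the groups. Sesn2, a stress-induced regulator of the same list, had 2.79, 3.45 and 2.56 in 9/13-HODEs livers, against 1.96, 1.32 and 2.75 in Ctrl livers, with overlapping groups (log2 fold change 0.62, edgeR unadjusted p = 0.0431).

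Of the 7 genes of NADPH supply, 2 were higher and 0 lower (28.6%, against 7.69% of all tested genes), and the median log2 fold change was 0.31. With 7 genes, a count of 2 is a small number to set beside a share. G6pdx, the entry enzyme of the pentose phosphate pathway, had an FPKM of 5.996, 4.62 and 2.80 in 9/13-HODEs livers, against 2.11, 0.740 and 2.41 in Ctrl livers (log2 fold change 1.42, edgeR unadjusted p = 0.0164). Tkt, transketolase of the same pathway, had 28.7, 29.7 and 28.1 in 9/13-HODEs livers, against 24.5, 19.9 and 23.2 in Ctrl livers (log2 fold change 0.42, edgeR unadjusted p = 0.00364). Both enzymes had groups apart, and they differed in the opposite direction to Gclc and Osgin1. Of 13 tested detoxification targets, Ephx1, microsomal epoxide hydrolase, was lower, at 96.5, 142.7 and 140.5 in 9/13-HODEs livers, against 176.9, 175.9 and 204.9 in Ctrl livers (log2 fold change -0.48, edgeR unadjusted p = 0.0277). Of the 7 heme and iron targets, 0 passed an unadjusted p of 0.05, with log2 fold changes above 0 in 6 and a median of 0.08.

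**Figure D4:**
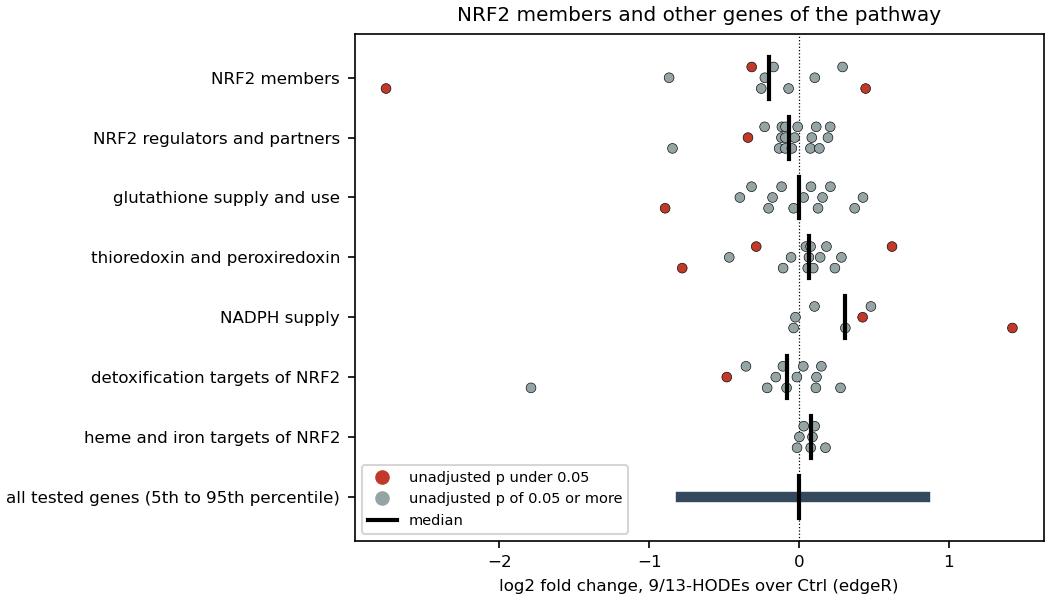
Log2 fold change of each gene, 9/13-HODEs over Ctrl (x axis), in the 10 members and in 6 lists of other pathway genes, with red points for an unadjusted edgeR p under 0.05 and a black bar for the median. The median is -0.20 in the members and 0.31 in NADPH supply, and the bar at the bottom spans the 5th to the 95th percentile of all 14741 tested genes.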

How the data were processed

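Liver RNA of 3 mice treated with 9/13-HODEs and of 3 Ctrl mice was sequenced. The counts deposited by the authors are whole numbers per gene model that are not normalized. The deposited FPKM scale them to length and depth, and a gene with no counts is listed at 0.0001. No column was left unmapped. The submitters' processing notes name edgeR, DESeq2, StringTie 1.3.4d, UMI-tools, HISAT2 2.0.4 and cutadapt 1.9, with no roles. Whether reads or unique molecules were counted, the strand setting and the genome build are not given in the sources used here. Of 55401 gene IDs, 55141 are in GENCODE M21, and 54928 starts equal those of that GRCm38 annotation. The methods and the sample descriptions name different RNA kits.

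Genes of mean FPKM of at least 0.1 were tested on counts with edgeR 4.0.16 (R 4.3.3, TMM, quasi-likelihood test, Benjamini-Hochberg adjustment). The exact permutation test used mean log2(FPKM + 0.1). Whether the groups of a gene overlapped was read from the deposited FPKM, without a TMM factor, unless counts are named. DESeq2 1.42.0, limma-trend (limma 3.58.1), other filters, pseudocounts and scalings, left-out libraries and the replicate number as a block were alternatives. The fits were tested on simulated data. The text names all members, pathway genes with an unadjusted p under 0.05 (at most 3 per list) and the 5 genes most like the member of smallest p. Members and lists were chosen with earlier results of these data known, and the TGAG form of the core was added after the windows were read.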

Additional observations from a re-analysis of the deposited data

How the results depend on the processing

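Across 15 alternatives, 141 of 150 log2 fold changes of members kept their sign and 0 members passed an adjusted p. Gclc and Osgin1 had an unadjusted p under 0.05 in all 15, and Hmox1 in 11. The count of members that were higher was 0 with library totals and no TMM factor and 0 with limma-trend on log2(TPM + 0.1), which moves the median of all genes by -0.14. Leaving out 1 library gave 0 to 1 members higher, 1 to 2 past the fold of 0.65 on the log2 scale with an unadjusted p under 0.05, and 3 to 16 genes past an adjusted p of 0.05. DESeq2 called 89 genes. A replicate block in edgeR left 0 genes past an adjusted p (892 at an unadjusted p). Samples of the same number did not deviate together (r of 0.018, -0.012 and -0.032). Directions turned only when a library was left out, and only in 5 genes. Nfe2l2 then ranged from -0.40 to 0.0151 (without Ctrl replicate 3) and Keap1 from -0.38 to 0.0140 (without replicate 1 of the 9/13-HODEs livers). Gclm ranged from -0.35 to 0.29, with 0.05 without replicate 1 or without replicate 3 of the 9/13-HODEs livers and 0.29 without Ctrl replicate 1. Nqo1 ranged from -0.10 to 0.51, with -0.07 without replicate 3 of the 9/13-HODEs livers, -0.02 without Ctrl replicate 2 and -0.10 without Ctrl replicate 3. Srxn1 ranged from -0.29 to 0.77, with -0.29 without Ctrl replicate 2. Txnrd1 kept its sign and ranged from -4.00 to -0.34. The 7 counts of Srxn1 in Ctrl replicate 2 have an exact Poisson 95% interval of 2.81 to 14.4 (counting error only), far below the counts of the other libraries. Between mice of a group the common coefficient of variation was 0.36.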
